A study of Rattus norvegicus with 30 samples.

Results

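Oxidative phosphorylation genes encode the subunits of the 5 mitochondrial complexes that carry electrons to oxygen and make ATP, together with proteins that assemble or adjust them. Members were all genes whose single symbol in the array's gene table begins with Nduf, Uqcr, Uqcc, Cox4 to Cox8 or Atp5, or is Sdha, Sdhb, Sdhc, Sdhd, Cyc1 or Cycs, with each gene read from its brightest probe set over the 30 arrays. This rule found 93 genes on 104 probe sets, out of 14217 genes with a single symbol. Of the 93 members, 89 passed the filter on low signal, out of 10627 genes that did. They comprise 34 subunits of complex I, 4 of complex II, 8 of complex III, 12 of complex IV, 15 of complex V and 16 assembly factors and associated genes.

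The cells were primary hepatocytes of male Sprague Dawley rats, bought frozen, kept in culture with Matrigel laid over them and dosed on day 3. The 3 groups harvested at 48 h received DMSO alone at 1%, 60 uM clofibrate or 1000 uM clofibrate, and the 3 groups harvested at 24 h received the same. The array titles give a DMSO level for the DMSO groups only and none for the clofibrate groups. Each group held 5 separate culture wells with 1 Affymetrix array each, so the p-values measure the spread between cultures and not between animals, which the labels do not name. Clofibrate is a lipid-lowering fibrate and an agonist of the nuclear receptor PPAR-alpha.

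Complex I takes electrons from NADH and complex II takes them from succinate, and both pass them to ubiquinone. Complex III hands them on through cytochrome c to complex IV, which reduces oxygen, and the proton gradient built on the way drives ATP synthesis by complex V. In liver, mitochondrial fatty acid oxidation, a textbook target of PPAR-alpha, feeds this chain with NADH and with electrons from flavoproteins. The members measured here are all encoded in the nucleus, and the subunits encoded in mitochondrial DNA were not analysed here.

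Correlations between arrays of 1 group lay between 0.964 and 0.979, and the 3'/5' signal ratio of actin lay between 2.11 and 2.72 over all arrays. Replicate 1 of DMSO at 48 h had a residual SD of 0.336, against 0.273 for the next array of its group, and replicate 1 of 60 uM at 48 h had 0.297, against 0.281. The 7 measured hepatocyte markers were bright in every group. Their summed signal was 386204 to 405072 at 1000 uM, against 429598 to 511605 in DMSO at 48 h, and at 1000 uM 3 of the 7 fell and 0 rose by limma. In that comparison 17.1% of all genes tested rose and 26.8% fell. No marker list was tested against these shares. Of the 5 Kupffer cell markers on the array 4 were tested and 1 fell, the lysozyme gene Lyz2 (-0.85 ± 0.079), and the list's sum was 6326 to 7155 at 1000 uM, against 9156 to 10492 in DMSO. Of the other lists at 1000 uM and 48 h, 1 of 3 endothelial markers rose (Pecam1, 0.70), 1 of 3 stellate markers fell (Acta2, -0.49), the only tested bile duct marker fell (Epcam, -0.43), and 0 of 2 muscle markers passed. Fewer cells of a type and less RNA per cell cannot be told apart in such bulk samples, and the part of these markers in the results below was not tested.

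At 1000 uM and 48 h, most subunits of the respiratory chain and the ATP synthase were modestly higher than in DMSO. Of the 89 tested members 61 rose, where 17.1% of all genes tested did, and 2 fell, where 26.8% of all genes did. The median log2 change of the members was 0.24, against -0.057 over all genes tested. All 73 subunits of complexes I to V had a positive estimate in the fit described here, against 72 of 73 with array weights and 68 of 73 with quantile normalization, and 57 of the 73 passed. In 57 of the 89 members all 5 treated arrays lay above all 5 DMSO arrays, which held for 12.8% of all genes. Many of these probe sets are bright, and among genes with a mean log2 signal of 13 or more 35.9% rose, against 57 of the 71 members in that range. This share among bright genes was taken for this comparison only. In the other comparisons the counts stand beside the share of all genes alone. Without replicate 1 of DMSO at 48 h, 59 members rose and 2 fell.

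**Figure D1:**
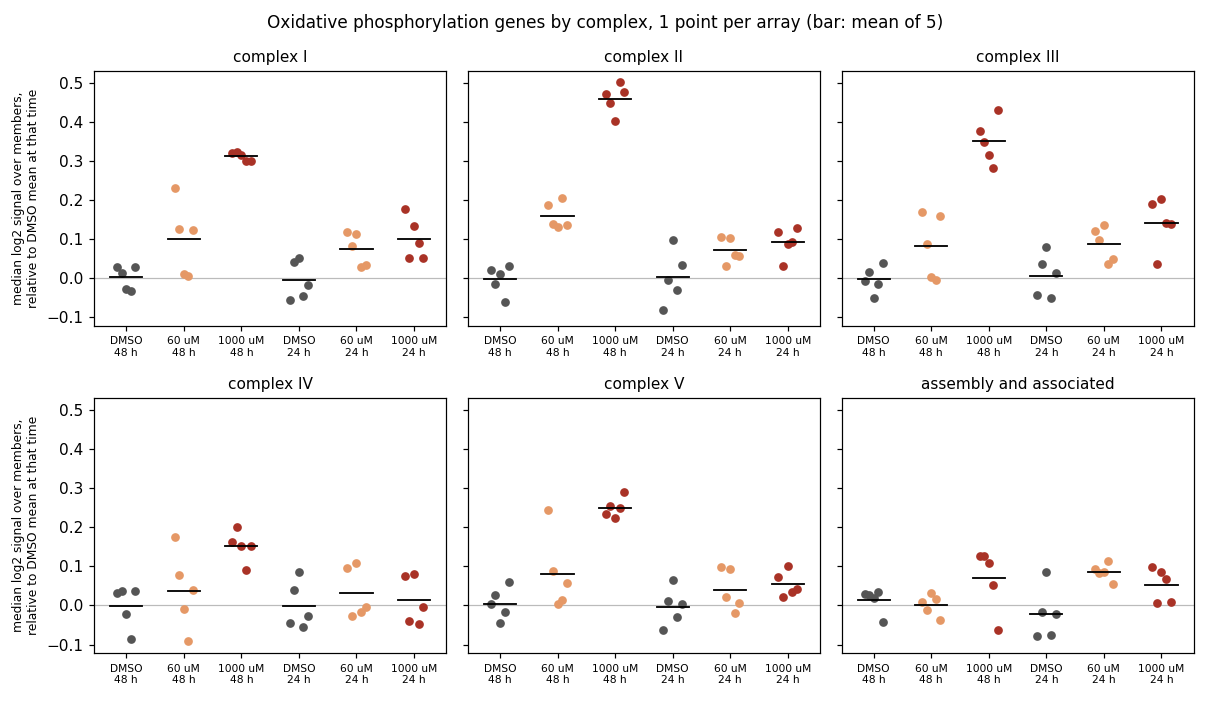
Median log2 signal over the members of each complex on each array, relative to the mean of the DMSO arrays of the same time (vertical axis), for 6 groups of 5 arrays. At 1000 uM and 48 h the points of complexes I, II, III, IV and V lie above all DMSO points of that time, from 0.40 to 0.50 in complex II down to 0.091 to 0.20 in complex IV.

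At 1000 uM and 48 h the complexes ranked by their median change in the order II (0.46), III (0.35), I (0.30), V (0.25) and IV (0.13). As levels on single arrays, the median of complex II members was 0.40 to 0.50 at 1000 uM, against -0.061 to 0.031 in DMSO at 48 h. That of complex IV was 0.091 to 0.20 at 1000 uM, against -0.086 to 0.038 in DMSO. The ranges of complexes I (0.30 to 0.32) and III (0.28 to 0.43) overlapped at 1000 uM, and neither complex was the higher on every array. The ranges of II and III overlapped too, but within every single array at 1000 uM complex II was higher than complex III. The ranges of complex V (0.22 to 0.29) and complex IV each lay below all arrays of the complex ranked before. This order did not hold at 24 h. There the array medians at 1000 uM averaged 0.14 in complex III, 0.10 in I, 0.091 in II, 0.054 in V and 0.013 in IV. Those of complex II lay between 0.031 and 0.13, overlapping DMSO at 24 h (-0.082 to 0.097). The bright end of the scale held many complex IV and V probe sets, with a mean log2 signal above 15 in 8 of 12 and 9 of 15, against 3 of 34 in complex I, 0 of 4 in complex II and 4 of 8 in complex III. Whether bright signals are compressed was not tested.

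In complex I, 28 of 34 subunits rose at 1000 uM and 48 h and 0 fell. Ndufs7, a core subunit that carries the iron-sulfur cluster next to the ubiquinone site, had signals of 28655, 27304, 27160.3, 27525 and 27225 at 1000 uM, against 17693, 18542, 17674, 17497 and 18925 in DMSO. The groups do not overlap, and the log2 change was 0.61 ± 0.044 (adjusted p = 2.47e-13). All 6 core subunits on the array (Ndufs1, Ndufs3, Ndufs7, Ndufs8, Ndufv1 and Ndufv2) rose, with a median of 0.45, against 22 of 28 accessory subunits with a median of 0.28. Ndufs1, the core subunit with several iron-sulfur clusters in the NADH arm, rose by 0.54 ± 0.046 (adjusted p = 2.1e-11). Ndufv1, which binds NADH and FMN, rose by 0.42 ± 0.04, with adjusted p = 3.04e-10.

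Among the accessory subunits, Ndufab1, which doubles as the mitochondrial acyl carrier protein, had signals of 23603, 21844, 21968, 22289 and 23453 at 1000 uM, against 15546, 14209.8, 15018, 15013 and 16556 in DMSO at 48 h. Every treated array exceeded every DMSO array, with a log2 change of 0.57 ± 0.052 (adjusted p = 6.87e-11). Ndufc1, a small membrane subunit, changed by 0.55 ± 0.034 (adjusted p = 5.21e-15). The largest estimate of all members was that of the accessory subunit Ndufa5, at 0.80 ± 0.21 (adjusted p = 0.00281). Its signals were 15812, 20343, 10697, 18927 and 11382 at 1000 uM, against 11864, 9458, 3663, 10778 and 10452 in DMSO, so 1 low array widened the DMSO group and the groups overlapped. The 6 complex I subunits that did not pass, all accessory, were Ndufa2, Ndufb1, Ndufb2, Ndufb4, Ndufb8 and Ndufs4, with estimates between 0.04 and 0.15.

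In complex II, which is also the succinate dehydrogenase of the tricarboxylic acid cycle, all 4 subunits rose. Sdha, the flavoprotein that oxidises succinate, had signals of 18065, 18171, 17948, 18493 and 17980.5 at 1000 uM, against 12323, 11987, 12797, 11599 and 12461 in DMSO at 48 h. The treated arrays lay within a narrow band far above the DMSO arrays, and the log2 change was 0.57 ± 0.037 (adjusted p = 1.77e-14). Sdhd, 1 of the 2 membrane anchors, had signals of 38939, 39034, 37744, 40589.7 and 38998 at 1000 uM, against 27630.1, 27783, 27693, 26028 and 28108 in DMSO, a log2 change of 0.51 ± 0.036 (adjusted p = 1.38e-13). The other anchor, Sdhc, changed by 0.41 ± 0.047 (adjusted p = 1.29e-08). Sdhb, the iron-sulfur subunit, changed by 0.32 ± 0.039 (adjusted p = 3.24e-08).

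In complex III all 8 subunits rose, and in each of them the 5 arrays at 1000 uM lay above the 5 DMSO arrays. Uqcrc2, a core protein of the matrix arm, had signals of 32722, 29841, 32291, 33432 and 30845 at 1000 uM, against 22169.9, 21681, 21978, 22879 and 24611 in DMSO (log2 change 0.49 ± 0.037, adjusted p = 1.09e-12). Cyc1, the haem subunit that passes electrons to cytochrome c, changed by 0.45 ± 0.05 (adjusted p = 6.85e-09). Uqcrfs1, the Rieske iron-sulfur protein, changed by 0.44 ± 0.037 (adjusted p = 1.22e-11). The smallest estimate was that of Uqcr11, at 0.16 ± 0.039.

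In complex IV 5 of 12 tested subunits rose, where 17.1% of all genes did, and 0 fell, where 26.8% did. Among genes with a mean log2 signal of 13 or more 35.9% rose. The 12 include Cox5a, Cox7a1 and Cox4i2, which lie below that range (11.8, 9.17 and 8.66) and did not pass. So 5 of 12 cannot be set directly against the share of bright genes, and the share within that range was not taken for complex IV. Ndufa4, once assigned to complex I and now counted with cytochrome c oxidase, had signals of 44705, 46363, 42832, 44985 and 47459.8 at 1000 uM, against 33815, 34697, 32108, 34066 and 36910.5 in DMSO at 48 h. The groups do not overlap, and the log2 change was 0.40 ± 0.055 (adjusted p = 3.06e-07). Cox7b changed by 0.24 ± 0.042 (adjusted p = 1.8e-05) and Cox5b by 0.24 ± 0.047 (adjusted p = 9.02e-05). The other 2 that rose were Cox6b1 (0.21) and Cox8a (0.15).

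Cox4i1, the common isoform of the largest nuclear-encoded subunit, had signals of 62328, 64994, 61274, 59560.1 and 64382 at 1000 uM, against 56792, 59102, 52893, 55483 and 66068 in DMSO. The ranges overlap, and the log2 change of 0.11 ± 0.056 did not pass (adjusted p = 0.127). Cox6a1 was at 0.10 (adjusted p = 0.101). The isoforms known from lung, heart and muscle or testis gave no call. Of these, Cox4i2 had 0.038 and Cox7a1 0.17, while Cox6a2, Cox6b2, Cox7b2 and Cox8b lay under the filter, with Cox6b2 and Cox8b also below the bacterial control sets in all 6 groups.

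In complex V 12 of 15 subunits rose and 0 fell. Atp5po, the stator protein that confers oligomycin sensitivity, had signals of 37938, 35176, 34698, 36371 and 37334 at 1000 uM, against 30223, 27664, 28327, 28004 and 26652 in DMSO at 48 h. All treated arrays lay above the DMSO arrays, with a log2 change of 0.37 ± 0.043 (adjusted p = 1.81e-08). Atp5pf, coupling factor of the stator, changed by 0.35 ± 0.058 (adjusted p = 7.41e-06). Atp5f1c, the central rotor subunit, changed by 0.34 ± 0.06 (adjusted p = 2.21e-05). The catalytic pair Atp5f1a and Atp5f1b was at 0.27 and 0.21, and both rose. The 3 that did not pass, Atp5me, Atp5mg and Atp5mk, belong to the membrane part. Atp5mc3, the only gene of the membrane ring's c subunit among the members, rose by 0.31 ± 0.047.

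**Figure D2:**
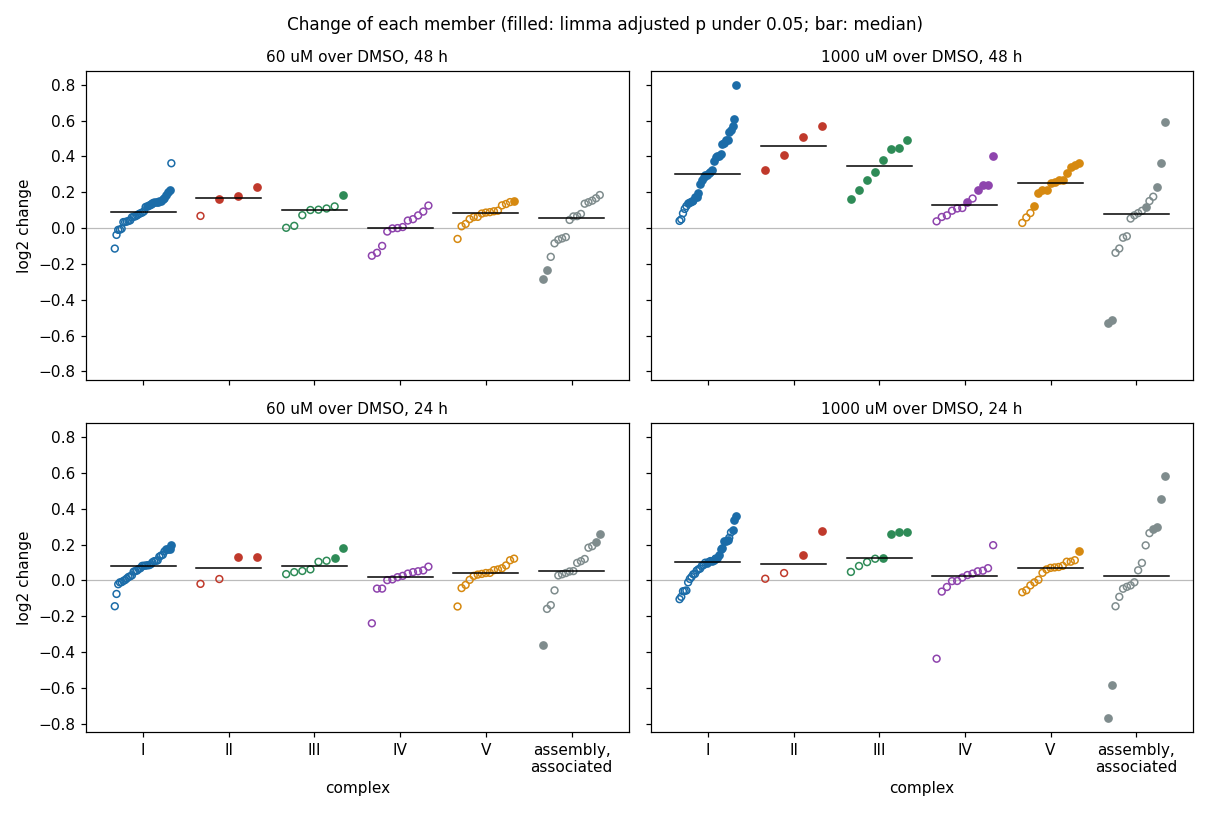
Log2 change of each of the 89 tested members (points, sorted within each complex) against DMSO, in 4 panels by dose and time, with filled points for an adjusted p under 0.05 and bars for medians. Filled points make up 61 of the positive and 2 of the negative estimates at 1000 uM and 48 h, against 10 and 1 at 60 uM and 24 h.

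Of the 16 assembly factors and associated genes 4 rose (25%) and 2 fell (12.5%) at 1000 uM and 48 h, where 17.1% of all genes rose and 26.8% fell, so the share that rose is near that of all genes. Their median was 0.078. None of the 6 complex I assembly factors tested (Ndufaf1, Ndufaf3, Ndufaf4, Ndufaf5, Ndufaf7 and Ndufaf8) passed in this comparison by limma, with estimates between -0.11 and 0.15. Of the 6 complex III assembly genes 3 rose. Uqcc1, needed for the assembly of cytochrome b, had signals of 4418, 4472, 4193, 4164 and 3989 at 1000 uM, against 2923, 2853, 2849, 2541 and 2896 in DMSO, a log2 change of 0.60 ± 0.063 (adjusted p = 2.05e-09). Uqcc4 changed by 0.37 ± 0.06 (adjusted p = 7.69e-06) and Uqcc5 by 0.23 ± 0.074 (adjusted p = 0.0138), which no longer passed when replicate 2 of the treated group was left out (adjusted p = 0.0575, within a range of 0.00118 to 0.0575 over the alternatives). Cox7a2l, which takes part in joining complexes III and IV, was at 0.12 ± 0.045 (adjusted p = 0.0367), and this call ended in 5 of the 10 fits that left out 1 array of either group.

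Ndufa4l2 and Atp5if1 were the 2 members that fell at 1000 uM and 48 h. Ndufa4l2, a relative of Ndufa4 described in human and mouse cells as a hypoxia-induced gene that lowers complex I activity, had signals of 7313, 8160.3, 7132, 5842 and 7606 at 1000 uM, against 10588, 11287, 10418, 9368 and 10098 in DMSO. The treated arrays all lay lower, and the log2 change was -0.53 ± 0.088 (adjusted p = 9.9e-06). Atp5if1, the inhibitory factor that blocks ATP hydrolysis by complex V, had signals of 9667, 9122, 8874, 8552 and 8403 at 1000 uM, against 13045, 12313, 13422, 11798 and 13029 in DMSO. The groups do not overlap, and the log2 change was -0.51 ± 0.063 (adjusted p = 4.03e-08). The other 2 probe sets of Atp5if1, which are dimmer, were at -0.13 (adjusted p = 0.371) and 0.056 (adjusted p = 0.863), so this fall rests on 1 of 3 probe sets. With the mean over its probe sets the call ended (adjusted p = 0.0820, highest of 1.1e-09 to 0.0820 over the alternatives).

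**Figure D3:**
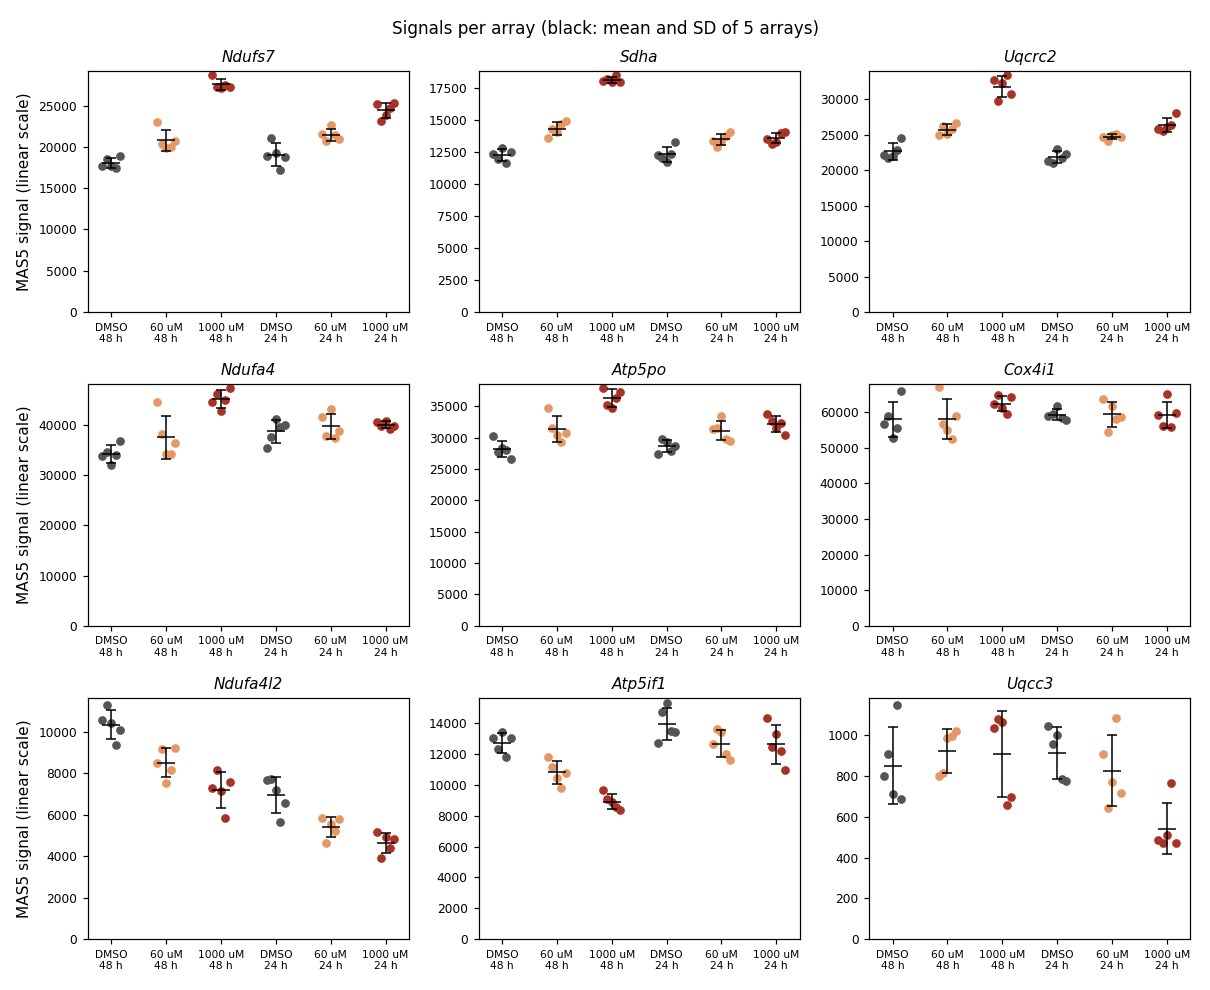
MAS5 signal on a linear scale (vertical axis) of 9 members on each array in 6 groups by time and dose, with black bars for the mean and SD of 5 arrays. At 48 h Ndufs7, Sdha, Uqcrc2, Ndufa4 and Atp5po were highest at 1000 uM and Ndufa4l2 and Atp5if1 lowest, while the Cox4i1 arrays overlapped and Uqcc3 was low at 1000 uM at 24 h.

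At 60 uM the changes were smaller and fewer members passed. At 48 h 17 rose, where 5.70% of all genes did, and 2 fell, where 5.79% did, with a median of 0.078. They were 12 of complex I, 3 of complex II and 1 each of complexes III and V, and 0 of complex IV by limma. All 6 core subunits of complex I rose, with estimates between 0.13 and 0.20. Sdha had signals of 13621, 14312, 14038, 14715 and 14930.3 at 60 uM, against 12323, 11987, 12797, 11599 and 12461 in DMSO, a log2 change of 0.23 ± 0.037 (adjusted p = 3.71e-05). The 2 that fell were Ndufa4l2 (-0.28 ± 0.088, adjusted p = 0.0395) and Atp5if1 (-0.23 ± 0.063, adjusted p = 0.0123). The other 2 probe sets of Atp5if1, which are dimmer, were at -0.090 (adjusted p = 0.729) and 0.37 (adjusted p = 0.330). With the mean over its probe sets the estimate was 0.014 (adjusted p = 0.955), so this fall rests on its brightest probe set. In 10 fits that each left out 1 array of either group, the calls of Ndufa4l2 and Ndufs1 ended in 7, those of Sdhc and Atp5po in 2 and that of Atp5if1 in 1, without replicate 4 of 60 uM.

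This count at 60 uM and 48 h was not stable. Without replicate 1 of 60 uM at 48 h, 11 members rose, where 5.34% of all genes did. It was 6 where only the 2 compared groups entered the fit, where 4.35% of all genes rose. It was 3 of 89 with arrays centred on their medians, where 3.91% of all genes rose, and 2 of 89 with scaling to the poly-A spike-ins, where 3.43% did, so these counts are no higher than the background. Replicate 1 held the highest median of complexes I, III, IV and V in its group.

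At 60 uM and 24 h 10 members rose, where 4.55% of all genes did, and 1 fell, where 3.76% did. Those that rose were Ndufc1, Ndufs3, Ndufs7, Ndufab1, Sdha, Sdhd, Uqcrc2, Uqcrfs1, Uqcc1 and Uqcc4. Uqcrc2 had signals of 24702, 24149.6, 25002, 25076 and 24772 at 60 uM, against 21254, 20974, 22949.9, 21709 and 22375 in DMSO at 24 h, and these groups do not overlap (log2 change 0.18 ± 0.037, adjusted p = 0.00156). Ndufa4l2 fell (-0.36 ± 0.088, adjusted p = 0.00797). Without replicate 1 or without replicate 2 of DMSO at 24 h, 6 members rose. Of these calls, that of Ndufab1 ended in 8 of the 10 fits that left out 1 array, Uqcrfs1 in 7, Uqcc4 in 5, Sdha in 4, Sdhd in 3 and Ndufs7 in 1, without replicate 4 of DMSO.

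Set directly against 60 uM at 48 h, 1000 uM was higher in 51 members, where 11.9% of all genes were, and lower in 2, where 18.5% were. Ndufs7 had signals of 28655, 27304, 27160.3, 27525 and 27225 at 1000 uM, against 23058, 20341, 19919, 19959.5 and 20700.2 at 60 uM, a log2 change of 0.41 ± 0.044 (adjusted p = 6.18e-09). Uqcc1 (0.44 ± 0.063), Ndufab1 (0.42 ± 0.052) and Ndufs1 (0.39 ± 0.046) also differed between the doses. At 24 h, 1000 uM was higher than 60 uM in 9 members, where 8.75% of all genes were, and lower in 2, where 12.8% were. The 9 of 89 are near the share of all genes, and only 5 were higher without replicate 1 of 1000 uM or without replicate 4 of 60 uM. The number lower was 4 without replicate 1 of 1000 uM and 1 without replicate 5 of 1000 uM or replicate 3 of 60 uM. Group means stood in the order DMSO, 60 uM, 1000 uM in 69 of the 89 members at 48 h and 47 at 24 h, against 25.9% and 22.2% of all genes tested.

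At 1000 uM and 24 h 24 members rose, where 13.4% of all genes did, and 2 fell, where 20.5% did, with a median of 0.072 against -0.058 over all genes. They were 13 of complex I, 2 of complex II, 4 of complex III, 1 of complex V and 4 assembly genes. The share that rose among equally bright genes was not taken here, and the part of brightness in this count was not tested. Ndufs7 had signals of 25168, 23140.0, 23929, 24681 and 25288 at 1000 uM, against 18855, 21103, 19258, 17226 and 18840.1 in DMSO at 24 h, and the groups do not overlap (log2 change 0.36 ± 0.044, adjusted p = 4.99e-08). Sdhd (0.27 ± 0.036, adjusted p = 1.95e-07) and Uqcrc2 (0.27 ± 0.037, adjusted p = 5.53e-07) rose as well. Uqcc1 had the largest rise, at 0.58 ± 0.063 (adjusted p = 5.18e-09). Ndufaf4, a complex I assembly factor, was at -0.046 at 48 h (adjusted p = 0.588) and rose at 24 h (0.29 ± 0.059, adjusted p = 0.000236). The 24 h call of Ndufv1 (0.11) ended in 8 of the 10 fits that left out 1 array.

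The 2 members that fell at 1000 uM and 24 h were Uqcc3 and Ndufa4l2. Uqcc3, an assembly factor of cytochrome b, had signals of 488, 473, 510.0, 764 and 474 at 1000 uM, against 1046, 955, 1004, 786 and 775 in DMSO, a log2 change of -0.77 ± 0.17 (adjusted p = 0.000505). Its treated arrays lay below the DMSO arrays, with 1 of them close to the lowest DMSO array. At 48 h its signals were 1037, 1079.8, 1063, 656 and 699 at 1000 uM, against 803, 909, 711, 1148 and 686 in DMSO, and the groups overlapped (log2 change 0.084 ± 0.17, adjusted p = 0.743). Ndufa4l2 changed by -0.58 ± 0.088 at 24 h (adjusted p = 2.78e-06).

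The comparisons of both doses with DMSO share the DMSO arrays of each time, so calls made in several of them are not independent. Side by side, Sdha changed at 48 h by 0.23 at 60 uM and 0.57 at 1000 uM, and at 24 h by 0.13 at 60 uM and 0.14 at 1000 uM. Ndufa4l2 changed at 48 h by -0.28 at 60 uM and -0.53 at 1000 uM, and at 24 h by -0.36 at 60 uM and -0.58 at 1000 uM. Its call at 60 uM and 48 h is the one that ended in 7 of 10 fits without 1 array, while in the other 3 comparisons it ended in 0 of 10.

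Whether the response to 1000 uM grew between the times depended on how the arrays were scaled. The change of the effect from the earlier to the later time, 48 h minus 24 h, was tested as such. It was positive in 40 members, where 5.27% of all genes were, and negative in 2, where 5.54% were. Sdha (0.43 ± 0.052, adjusted p = 7.37e-07) and Sdhc (0.40 ± 0.067, adjusted p = 9.75e-05) had the largest positive differences among subunits that passed. Uqcc3 (0.85 ± 0.24, adjusted p = 0.0192) had the largest of all, and Atp5if1 (-0.37 ± 0.089, adjusted p = 0.00636) the most negative. Each of these calls ended under 1 of 30 alternatives, with a highest adjusted p of 0.660 for Atp5if1. Median centring left 8 members higher, where 2.58% of all genes were, and 2 lower, where 6.02% were. Putting the arrays on a common poly-A spike-in level, a setting added after the data were seen, left 0 higher by limma, where 1.14% of all genes were, and 1 lower, where 2.74% were. With spike-in scaling 72 members rose at 1000 uM and 48 h, where 23.7% of all genes did, with a median of 0.40, and 65 at 24 h, where 27.2% of all genes did, with a median of 0.30.

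That scaling also moved the median of all genes tested at 1000 uM to 0.11 at 48 h, against -0.057 with the authors' scaling, and to 0.17 at 24 h, against -0.058. Relative to the median of all genes, the members' median was 0.30 at 48 h and 0.13 at 24 h, a difference that a shift of whole arrays leaves as it is by construction. With quantile normalization, which can change it, it was 0.20 at 48 h and 0.064 at 24 h. For 60 uM the difference of effect between the times gave 0 members higher and 0 lower by limma, where 0.0659% and 0.0847% of all genes were, and 2 higher and 1 lower at an unadjusted p under 0.05.

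**Figure D4:**
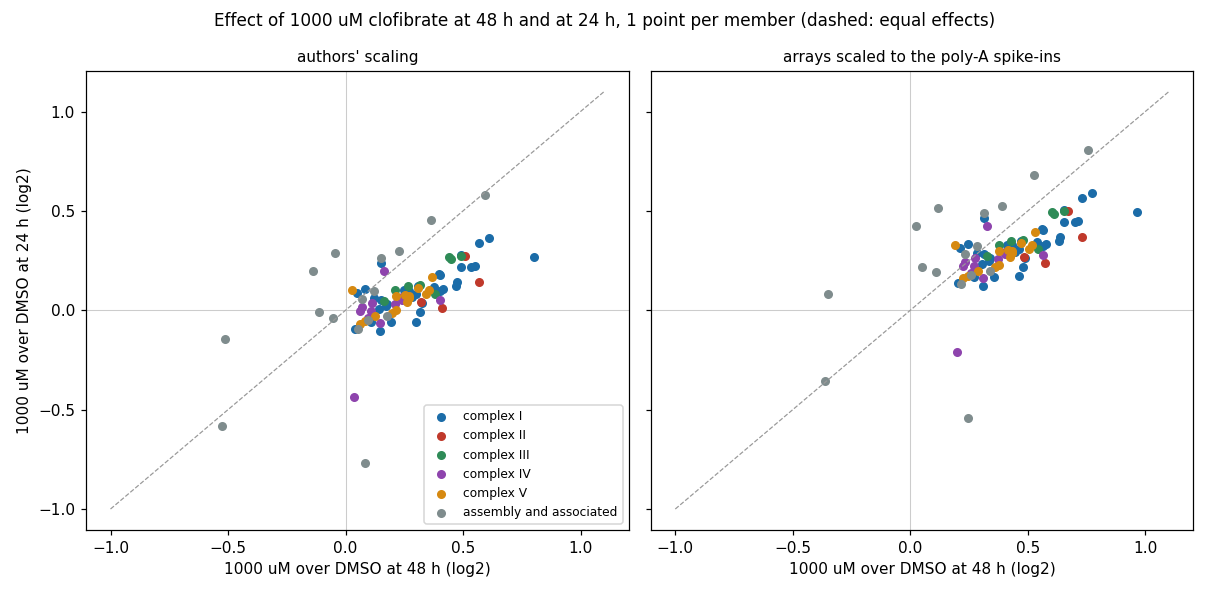
Log2 change at 1000 uM against DMSO at 48 h (horizontal axis) and at 24 h (vertical axis) for each tested member, coloured by complex, with the authors' scaling in the left panel and poly-A spike-in scaling in the right one. The members' median was 0.24 at 48 h, against 0.072 at 24 h, in the left panel, and 0.40 at 48 h, against 0.30 at 24 h, in the right one.

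In DMSO alone, 48 h against 24 h, 2 members were higher, where 5.10% of all genes were, and 2 lower, where 3.75% were. Ndufa4l2 had signals of 10588, 11287, 10418, 9368 and 10098 at 48 h, against 7693, 7723, 7221, 5663 and 6572 at 24 h, so it rose with culture time (log2 change 0.58 ± 0.088, adjusted p = 2.75e-05). Uqcc6 was also higher (0.34 ± 0.11, adjusted p = 0.0436). Uqcc5 (-0.31 ± 0.074, adjusted p = 0.00683) and Ndufa4 (-0.18 ± 0.055, adjusted p = 0.0437) were lower. Over 21 alternatives each, the call of Ndufa4 ended in 14 (with an estimate of -0.022 under spike-in scaling, and adjusted p from 0.00747 to 0.894), that of Uqcc6 in 11 (adjusted p from 0.00852 to 0.195) and that of Uqcc5 in 1, spike-in scaling (adjusted p = 0.406, from 0.00221). That of Ndufa4l2 ended in 0 of its 21.

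Genes that work beside the chain included larger changes at 1000 uM and 48 h, where 17.1% of all genes rose and 26.8% fell. Of 8 genes for other routes of electrons to ubiquinone, 4 rose and 2 fell. Gpd2, the mitochondrial glycerol-3-phosphate dehydrogenase, changed by 2.91 ± 0.10, and Etfdh, Etfb and Etfa, which carry electrons from fatty acid oxidation to ubiquinone, by 1.11, 0.78 and 0.53. Prodh, the proline dehydrogenase, fell (-1.20 ± 0.16), as did Sqor (-0.51 ± 0.036), which oxidises sulfide. Of 12 tricarboxylic acid cycle genes 9 rose and 1 fell, with Sucla2 at 0.84, Cs, the citrate synthase, at 0.51, and Idh2, the NADP-dependent isocitrate dehydrogenase, at -0.61.

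Of 11 ubiquinone synthesis genes 6 rose and 1 fell, with Coq5, Coq3 and Pdss2 at 0.89, 0.82 and 0.80. Of 30 assembly and copper genes outside the member rule 11 rose and 5 fell. Among them the complex I assembly genes Foxred1 (0.86) and Acad9 (0.65) and the complex II factor Sdhaf1 (0.75) rose, and the complex IV factors Coa3 (-0.45) and Coa7 (-0.80) fell. Of 17 regulators of mitochondrial biogenesis and DNA maintenance 6 rose and 3 fell. Tfam, which packages mitochondrial DNA, was at 0.54, and the coactivator Ppargc1a at -0.77. Of 16 import and outer membrane genes 9 rose and 1 fell. For scale, Acadm, a fatty acid oxidation enzyme under PPAR-alpha, rose by 2.30 ± 0.063 in the same comparison.

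**Figure D5:**
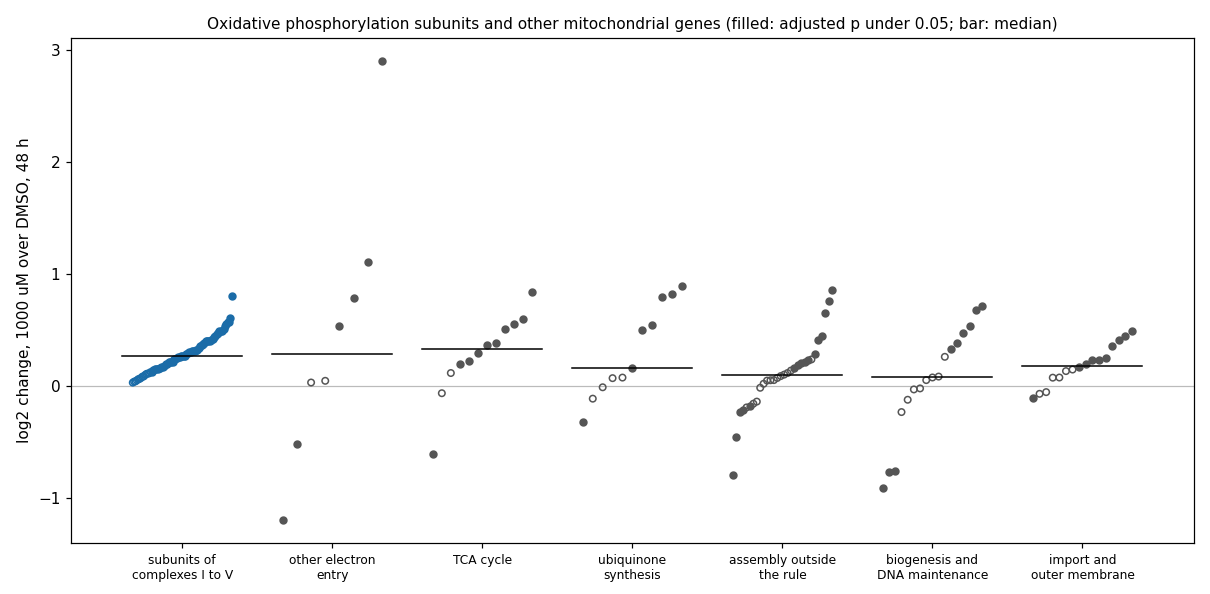
Log2 change at 1000 uM against DMSO at 48 h (vertical axis) of the 73 tested subunits of complexes I to V (blue) and of 6 lists of other mitochondrial genes (grey), with filled points for an adjusted p under 0.05 and bars for medians. All 73 subunits lie above 0 in the fit plotted (72 with array weights, 68 with quantile normalization), and their highest estimate is 0.80, while the other lists reach 2.91 and -1.20.

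Promoter sequences are shown for the largest rise of each complex at 1000 uM and 48 h, among members whose groups did not overlap, and for Ndufa4l2, which had the larger of the 2 falls there. RefSeq (GRCr8) gave a promoter for 84 of the 93 members, of which the 250 bases before the gene's start were searched on both strands for 4 motifs. They were GCGCA and GCGC with 1 base of any kind between them for NRF1, CCGGAAG for GABPA and other ETS factors, AAGATGG for YY1, and AGGTCA and AGGTCA with 1 base between for the PPAR direct repeat. The NRF1 letters stood in 14 of the 84 (16.7%), against 4.17% of all 27457 promoters. Those of GABPA stood in 23 (27.4%), against 7.74% of all. Those of YY1 stood in 4 (4.76%), against 4.63%, and the PPAR repeat in 0, against 0.0546% of all. With this exact repeat in only 15 of the 27457 promoters, 0 of 84 tells nothing about the members, and variants of it were not searched. The 27457 promoters include those of genes not tested on these arrays. Shares among tested or equally bright genes were not taken for any motif.

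Members that rose at 1000 uM and 48 h can be set beside those that did not pass, as a description with no test. NRF1 letters stood in 17.9% of 56 that rose and 18.2% of 22 that did not pass, and GABPA letters in 30.4% and 27.3% of the same members. A match is only a description of letters, and these windows miss any site farther away. The 6 promoters follow, each of 250 bases, read 5' to 3' along the gene's own strand, with motif matches in capitals. Their positions in GRCr8 are chr7:10110499-10110748 on the minus strand for Ndufs7, chr1:30764303-30764552 on the plus strand for Sdha, chr1:184598990-184599239 on the plus strand for Uqcrc2, chr4:40975560-40975809 on the minus strand for Ndufa4, chr11:44657484-44657733 on the minus strand for Atp5po and chr7:65241919-65242168 on the plus strand for Ndufa4l2. Capitals mark NRF1 letters in Sdha at 2 places and in Atp5po, and in Uqcrc2 GABPA letters at 2 places (CTTCCGG, on the other strand) followed by YY1 letters (CCATCTT, on the other strand). Ndufs7, Ndufa4 and Ndufa4l2 held none of the 4 motifs.
Ndufs7: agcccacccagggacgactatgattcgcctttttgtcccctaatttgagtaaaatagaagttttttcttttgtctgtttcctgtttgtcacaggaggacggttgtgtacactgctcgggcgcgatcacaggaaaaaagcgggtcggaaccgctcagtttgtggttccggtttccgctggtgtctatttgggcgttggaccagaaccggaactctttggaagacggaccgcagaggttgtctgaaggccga
Sdha: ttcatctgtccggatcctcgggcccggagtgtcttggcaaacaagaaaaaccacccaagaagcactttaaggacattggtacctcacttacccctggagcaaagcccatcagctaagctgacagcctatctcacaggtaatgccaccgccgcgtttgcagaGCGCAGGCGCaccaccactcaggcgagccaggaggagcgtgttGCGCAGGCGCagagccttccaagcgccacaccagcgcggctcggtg
Uqcrc2: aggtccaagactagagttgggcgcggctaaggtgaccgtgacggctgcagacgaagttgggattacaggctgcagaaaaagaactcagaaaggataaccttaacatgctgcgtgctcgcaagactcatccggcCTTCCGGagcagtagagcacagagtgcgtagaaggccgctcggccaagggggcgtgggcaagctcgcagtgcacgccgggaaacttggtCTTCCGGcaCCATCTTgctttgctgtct
Ndufa4: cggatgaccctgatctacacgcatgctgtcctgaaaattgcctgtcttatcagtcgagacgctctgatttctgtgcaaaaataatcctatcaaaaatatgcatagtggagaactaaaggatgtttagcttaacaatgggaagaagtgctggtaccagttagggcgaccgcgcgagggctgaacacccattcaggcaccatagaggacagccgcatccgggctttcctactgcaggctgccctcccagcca
Atp5po: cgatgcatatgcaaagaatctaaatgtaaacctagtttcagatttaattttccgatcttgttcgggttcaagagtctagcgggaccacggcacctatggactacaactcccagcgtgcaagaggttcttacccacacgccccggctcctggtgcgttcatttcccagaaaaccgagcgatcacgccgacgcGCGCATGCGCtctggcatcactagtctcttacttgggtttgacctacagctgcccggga
Ndufa4l2: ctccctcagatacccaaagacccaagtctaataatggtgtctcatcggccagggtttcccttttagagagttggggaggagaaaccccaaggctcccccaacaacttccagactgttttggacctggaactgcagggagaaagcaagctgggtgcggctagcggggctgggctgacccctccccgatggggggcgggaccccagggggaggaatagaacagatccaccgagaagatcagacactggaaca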

How the data were processed

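Total RNA of 30 rat hepatocyte cultures, in 6 groups of 5 by treatment and time, was labelled (biotin) and measured on Affymetrix rat arrays, per the labels' protocols. The values are each probe set's intensity (signal) as deposited by the authors, a linear value made with MAS5 per the submitters' processing notes, which name no version. The mean without the top and bottom 2% was 1501 on every array, so the authors' scaling fixes this mean and a change in total RNA cannot be seen.

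The log2 of each signal was taken with nothing added. Of 31042 probe sets other than controls, the 18625 whose mean log2 over all arrays exceeded its 40th percentile (a value of 8.00) were tested. A single limma model of all 30 arrays estimated the 6 group means, with variances moderated along a trend in intensity, and p-values were adjusted by Benjamini and Hochberg's method over all tested probe sets in each of 9 comparisons. A gene rose or fell where its adjusted p was under 0.05. All adjusted p-values are limma's, errors of log2 changes are its standard errors, and n = 5 arrays per group. R 4.3.3 and limma 3.58.1 were used, and the steps were tested on simulated data.

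Gene names come from the platform's gene table, and 9 probe sets that match the member rule but carry several symbols are not named. Of the 93 member probe sets 4 are of a type shared by several transcripts of 1 gene. Members with values are named by a rule: the 3 largest changes per complex against DMSO that passed with groups that do not overlap, the 8 largest rises and falls at 1000 uM at each time, all paralogues and complex II, and the 4 largest in each other comparison. Others are named as examples after their values were seen. Members, classes and gene lists were chosen with earlier results of these data known. Alternatives were other scalings, filters, fits, a constant, the mean over a gene's probe sets and leaving out each array, and scaling to 24 poly-A control sets and a block of consecutive title numbers were added after the data were seen. Promoters come from RefSeq (GRCr8). The number of arrays limits the precision.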

Additional observations from a re-analysis of the deposited data

Results flagged for a closer look

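The effect of 1000 uM at 48 h minus that at 24 h was tested as such and passed, with the authors' scaling, in 40 members with a higher and 2 with a lower value. Uqcc3 (0.85), Sdha (0.43) and Sdhc (0.40) were the largest positive ones and Atp5if1 (-0.37) the most negative. All 4 of these calls ended under 1 alternative each.

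In 11 of 162 groups of 5 arrays, 1 array lay far from the other 4, with a gap above 0.71 of the group's whole range. Chance flags about 1 in 20 such groups. At 48 h replicate 1 was high for Ndufs7 at 1000 uM (gap 0.752 of the range) and at 60 uM (0.737), and for Atp5f1c at 60 uM (0.711). In DMSO at 48 h, replicate 3 was low for Ndufa5 (0.807), replicate 4 for Sdhd (0.777) and Uqcc1 (0.818), and replicate 5 for the median of the assembly and associated genes (0.82). At 24 h, replicate 3 of 60 uM was high for Sdhc (0.786), replicate 4 of 1000 uM for Uqcc3 (0.841), and in DMSO replicate 3 for Ndufab1 (0.74) and replicate 5 for Cyc1 (0.756).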

How the results depend on the processing

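At 1000 uM and 48 h the 61 members higher became 53 to 72 under the other settings and 56 to 60 when 1 array was left out, with 1 to 3 lower (1 with the mean over probe sets, 2 to 3 with 1 array left out). Scaling moved other counts, and the cause was not tested. With poly-A spike-in scaling 65 members were higher at 1000 uM and 24 h, 2 at 60 uM and 48 h, 4 in DMSO over time and 0 in the difference of the 1000 uM effect, with 1 lower in that difference and 0 lower in all comparisons of 60 uM with DMSO, 1000 uM with 60 uM and DMSO over time. With median centring 3 were higher at 60 uM and 48 h, 5 at 1000 uM against 60 uM at 24 h and 8 in the difference of the 1000 uM effect, with 0 lower at 60 uM and 24 h and 1 lower in DMSO over time and at 1000 uM against 60 uM at either time. Quantile normalization gave 8 lower at 1000 uM and 24 h and 5 lower at 1000 uM against 60 uM at 24 h. With no intensity trend 6 were higher at 60 uM and 24 h, and with only the compared groups 5 there and 6 at 48 h. In DMSO over time 1 was higher with no filter, no trend, array weights or only the compared groups, and 1 lower with no filter, no trend or only the compared groups. With no filter, no trend or the mean over probe sets 1 was lower at 60 uM and 48 h and at 1000 uM against 60 uM at 48 h, and with the mean over probe sets 1 in the difference of the 1000 uM effect.

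Leaving out 1 array gave 20 to 25 higher and 2 to 4 lower at 1000 uM and 24 h (4 without replicate 1 of DMSO), 6 to 10 and 1 at 60 uM and 24 h, 11 to 19 and 0 to 2 at 60 uM and 48 h (0 without replicate 4 of 60 uM), 5 to 9 and 1 to 4 at 1000 uM against 60 uM at 24 h (5 higher without replicate 1 of 1000 uM or replicate 4 of 60 uM), 45 to 61 and 1 to 2 at 48 h, 1 to 3 and 1 to 3 in DMSO over time, and 29 to 43 and 2 in the difference of the 1000 uM effect. The difference of the 60 uM effect kept 0 and 0. A count of 2 became 1 for members lower at 60 uM and 48 h (without replicate 1, 2, 3 or 5 of DMSO or 1 or 3 of 60 uM), lower at 1000 uM against 60 uM at 24 h (without replicate 3 of 60 uM or 5 of 1000 uM, with 4 without replicate 1 of 1000 uM) and at 48 h (without replicate 1, 2 or 5 of 60 uM or 1, 3 or 4 of 1000 uM), and in DMSO over time higher (without replicate 1, 2, 4 or 5 at 24 h or 1 or 3 at 48 h) and lower (without replicate 2, 3 or 5 at 24 h or 1, 3 or 4 at 48 h). Of 2889 alternative values for 129 calls of the 40 named genes, 2573 kept the call, 315 lost it and 1 reversed, Atp5if1 at 60 uM and 48 h (0.014 with the mean over its probe sets, adjusted p = 0.955, the highest over the alternatives, which began at 0.00139).

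The labels give no replicate numbers shared between groups, but the titles number the arrays serially, and each 6 consecutive numbers hold 1 array of every group. In 1 of the 75 pairs of arrays from such a run did the deviations from the group means correlate above 0.1 (median 0.0056, against -0.0027 for arrays of different runs), and 11 of 30 arrays correlated best with their own run. The number that chance would give was not worked out, so these values do not settle whether arrays of a run are linked. As the labels name no runs, they were not taken as pairs in the main fit. A fit with the run as a replicate block, added after the data were seen, gave 62 higher and 2 lower at 1000 uM and 48 h, 26 and 3 at 1000 uM and 24 h, 18 and 2 at 60 uM and 48 h, and 11 and 1 at 60 uM and 24 h. All 18 counts of members stayed within 1.5 times those without the block, and 1 of the 129 calls ended, Ndufa4 in DMSO over time, with an adjusted p just above the threshold.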

Other observations

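Of the members with more than 1 probe set, 10 genes had 11 others, of which 9 were tested. In the 36 pairs they form over the 4 comparisons with DMSO, both probe sets passed in the same direction in 10, in opposite directions in 0, only 1 passed in 11, and neither in 15. A second probe set of Uqcrc2 was at 0.55 ± 0.096 at 1000 uM and 48 h (adjusted p = 2.01e-05), one of Uqcc1 at 0.46 ± 0.090 (adjusted p = 0.000101) and one of Ndufa7 at 0.51 ± 0.095 (adjusted p = 4.61e-05), each in the direction of the brighter one. The pseudogene Cox6c-ps1 did not pass at either dose or time.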
